A study of Mus musculus with 8 samples.

Results

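The genes of cholesterol synthesis and sterol regulation were followed in mouse inguinal mammary gland after a single injection of 17β-estradiol (E2). The group was a list of 31 genes, chosen with earlier results of these data known. A probe set annotated to that symbol alone was present for 29 of them, out of 18193 genes on the array. Of these, 27 lay above the level filter used for testing, out of 10916 genes tested. Mvd and Tm7sf2 lay below it and are described outside the main test, and Acat2 and Nr1h2 enter the promoter counts only. Each gene was read from the probe set with the highest mean over the arrays, on the log2 scale of the deposited intensity. A level on this scale belongs to its own probe set, so levels are compared between arrays and never between genes.

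E2, the main estrogen in circulation, was given under the skin to gonadectomized virgin mice aged 12 to 13 weeks, and gonadectomy removed the ovaries as a source of estrogen. There were 6 E2 arrays, 1 for each of 6 times between 1 and 24 h before tissue collection, and 2 vehicle arrays, both titled 24 h, from mice that were also gonadectomized. The sample descriptions read 24 h for every array, which conflicts with the titles, and no source used here resolves it. Strain and pooling of mice are not given there, and the dose carries conflicting units and is not stated. The E2 arrays were read as a late window (12, 18 and 24 h, n = 3) and an early window (1, 3 and 6 h, n = 3), with vehicle at n = 2. These windows were also chosen with earlier results known, so the adjusted p-values do not belong to a split set in advance. The arrays within a window differ in time, nothing in the labels says which animals stand behind an array, and p-values therefore measure only the spread between these arrays. Because both vehicle arrays are titled 24 h, an effect of E2 at 1 to 18 h cannot be told apart from an effect of the injection or of time of day.

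Cholesterol is built from acetyl-CoA through mevalonate and isoprenoid diphosphates to squalene, which is closed to lanosterol and then trimmed and reduced. The transcription factor SREBP2 activates the genes of these steps when sterol is scarce: SCAP carries it out of the endoplasmic reticulum, and the INSIG proteins hold SCAP back when sterol is plentiful. When sterol accumulates, the oxysterol receptors of the LXR family activate genes of cholesterol export, and in the mammary gland lipid synthesis belongs to both fat cells and the epithelium.

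The promoters of 25 of the 31 genes were present in the RefSeq table of assembly GRCm38.p6, as windows of 300 bases. They were taken to run from 250 before to 50 after a gene start. That distance was the most frequent over plus-strand windows and held in 60.1% of the 16560 matched. Positions given below rest on it. Fdps, Sqle, Fdft1, Stard4, Abcg1 and Npc1 are not among them, so the motif counts leave out 2 of the 5 genes that passed the test. Shown are those of Cyp51, Sc5d and Nsdhl, which passed the test described further on, of Insig1, a feedback gene whose early arrays lay below both vehicle arrays, and of Hmgcs1, the 1 gene with a match to the sterol element searched. Capitals mark the NF-Y box (CCAAT, or ATTGG where it reads on the other strand) and, in Hmgcs1, also the sterol element. The windows lie at chr5:4104648-4104947 (minus strand) for Cyp51, chr9:42264251-42264550 (minus strand) for Sc5d, chrX:72918271-72918570 (plus strand) for Nsdhl, chr5:28071162-28071461 (plus strand) for Insig1 and chr13:119690101-119690400 (plus strand) for Hmgcs1, and each is written 5′ to 3′ on the strand of its gene.
Cyp51: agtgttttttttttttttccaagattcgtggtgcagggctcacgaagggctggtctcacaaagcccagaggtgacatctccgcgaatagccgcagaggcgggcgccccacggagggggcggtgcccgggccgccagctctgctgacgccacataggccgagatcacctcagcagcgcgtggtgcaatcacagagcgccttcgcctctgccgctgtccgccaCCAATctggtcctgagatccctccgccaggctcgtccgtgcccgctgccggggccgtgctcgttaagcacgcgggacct
Sc5d: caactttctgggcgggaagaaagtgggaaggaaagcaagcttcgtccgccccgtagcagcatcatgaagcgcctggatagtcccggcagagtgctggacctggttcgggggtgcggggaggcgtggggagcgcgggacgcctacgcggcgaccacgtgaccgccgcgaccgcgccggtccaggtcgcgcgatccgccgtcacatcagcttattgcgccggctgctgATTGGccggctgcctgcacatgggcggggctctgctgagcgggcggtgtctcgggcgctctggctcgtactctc
Nsdhl: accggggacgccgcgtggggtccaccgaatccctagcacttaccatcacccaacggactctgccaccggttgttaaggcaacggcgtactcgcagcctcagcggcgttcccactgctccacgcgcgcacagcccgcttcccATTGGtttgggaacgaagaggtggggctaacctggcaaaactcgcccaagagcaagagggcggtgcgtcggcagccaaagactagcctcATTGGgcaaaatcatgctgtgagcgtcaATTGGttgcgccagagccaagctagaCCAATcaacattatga
Insig1: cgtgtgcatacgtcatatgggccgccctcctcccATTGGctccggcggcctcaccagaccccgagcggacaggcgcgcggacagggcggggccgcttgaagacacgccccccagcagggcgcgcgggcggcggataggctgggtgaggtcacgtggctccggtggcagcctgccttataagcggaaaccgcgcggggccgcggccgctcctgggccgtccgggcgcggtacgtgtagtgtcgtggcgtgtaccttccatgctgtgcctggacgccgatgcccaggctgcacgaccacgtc
Hmgcs1: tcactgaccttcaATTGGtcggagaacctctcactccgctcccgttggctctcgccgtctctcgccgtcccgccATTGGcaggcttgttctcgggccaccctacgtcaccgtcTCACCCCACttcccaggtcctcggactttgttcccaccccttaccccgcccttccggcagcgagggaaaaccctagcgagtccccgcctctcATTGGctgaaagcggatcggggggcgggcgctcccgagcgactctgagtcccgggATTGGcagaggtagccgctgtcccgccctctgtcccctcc

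The motifs were searched on both strands of every window, and a gene was counted when any of its windows held a match. The 25 genes include Acat2, Nr1h2, Mvd and Tm7sf2, which were not in the main test, whereas the shares beside them are of tested genes. CCAAT, the box bound by NF-Y, a factor known to act beside SREBP2, was found in 20 of the 25 genes (80%) and in 15 of the 16 synthesis enzymes with a window, against 42.2% of the 8778 tested genes with a window. GGGCGG, the box bound by Sp1, was found in 21 of the 25 (84%), against 68% of those tested genes. The sterol element, written TCACNCCAC, was found in 1 of the 25, in Hmgcs1 as TCACCCCAC at 137 bases before the start, against 1.47% of the tested genes. The direct repeat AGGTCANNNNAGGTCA, read by LXR, and the estrogen element GGTCANNNTGACC were found in 0 of the 25, against 0% and 0.0114% of the tested genes, so a count of 0 says nothing about these genes. The short boxes can overlap other motifs, a match describes letters only, and its absence from these windows says nothing about binding.

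Of the 27 tested genes, 5 were higher in the late window than in the early window, all of them synthesis enzymes: Cyp51, Fdps, Sc5d, Sqle and Nsdhl (limma, Benjamini-Hochberg adjusted p below 0.05 over 10916 genes). None was lower. Over all genes tested, 0.247% were higher and 0.302% were lower by the same test. At an unadjusted p below 0.05, 13 of the 27 were higher and 3 were lower (Ggps1, Insig2 and Npc1), against 5.5% and 13.6% of all genes. All 5 calls were lost without any 1 of the arrays at 3, 12, 18 or 24 h and with a luminal or adipocyte marker mean as a covariate, and those of Sqle and Nsdhl also after quantile normalization (limma adjusted p = 0.0516 for each). The luminal mean itself separated the windows, and the SE of the 5 rose in that fit. The rises lay between 1.33-fold (Nsdhl) and 1.63-fold (Cyp51). The median of the enzymes lay below vehicle at 3 and 6 h and above it from 12 h on, and the medians of the sterol sensing, transport and efflux genes lay between -0.12 and 0.05 of vehicle on every E2 array.

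**Figure D1:**
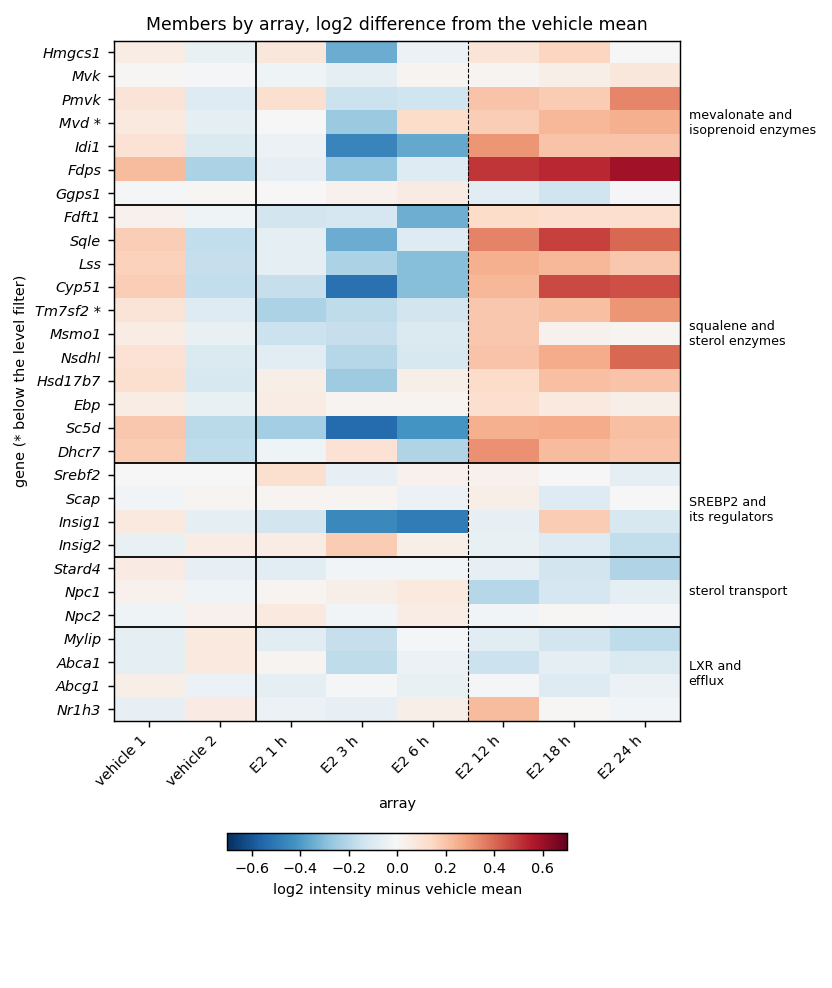
Heat map of the log2 intensity of the 29 measured genes (down the page, grouped by role, with an asterisk for those below the level filter) on the 8 arrays (across, vehicle first and then E2 from 1 to 24 h), as the difference from the mean of the 2 vehicle arrays. At 3 h, 15 of 18 enzymes lie below both vehicle arrays, against 3117 of all 10916 genes tested. At 12 h, 17 of 18 lie above both, against 4140 of all genes tested.

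The 18 measured enzymes had a median late minus early difference of 0.31, with 17 of 18 above 0, whereas the median over all genes tested was -0.03 and 40.4% of them lay above 0. Against the vehicle mean, the enzyme medians at 1, 3 and 6 h were -0.05, -0.21 and -0.11, and those in the late window were 0.20, 0.21 and 0.20 in order of time. The median of all genes stayed between -0.02 and 0.02 on these arrays. The 2 vehicle arrays themselves differed, with vehicle 1 above vehicle 2 in 17 of 18 enzymes by a median of 0.19, compared with 47.7% of all genes. In whole tissue, fewer cells of a type and less RNA per cell cannot be told apart.

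Among the 7 enzymes of the mevalonate and isoprenoid steps, of which Mvd was not in the main test, 1 passed. Fdps, farnesyl diphosphate synthase, at the branch point of the isoprenoids, had a log2 intensity of 9.79, 9.82 and 9.88 in the late window, 9.23, 9.02 and 9.2 in the early window, and 9.51 and 9.07 on vehicle. All late arrays lay above all early arrays and above both vehicle arrays. The late minus early difference was 0.68 (SE 0.101, limma adjusted p = 0.0406), a 1.6-fold rise.

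Idi1, the isomerase of isopentenyl diphosphate, had 9.06, 8.95 and 8.95 in the late window, 8.71, 8.29 and 8.39 in the early window, and 8.85 and 8.65 on vehicle. Its late arrays also lay above all the others, with a difference of 0.52 (SE 0.102) that missed the threshold (limma adjusted p = 0.065). A further Idi1 probe set above the level filter gave 0.87. Pmvk, which phosphorylates phosphomevalonate, had 9.05, 9.03 and 9.19 in the late window, 8.96, 8.70 and 8.71 in the early window, and 8.94 and 8.76 on vehicle. Its difference of 0.30 (SE 0.0826) did not pass (limma adjusted p = 0.135).

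The remaining enzymes of this stretch had smaller differences, none of which passed. Hmgcs1, the synthase of HMG-CoA, had a late minus early difference of 0.18 (limma adjusted p = 0.323), and the 3 other Hmgcs1 probe sets above the filter gave 0.15 to 0.19. Mvk, mevalonate kinase, differed by 0.07 (limma adjusted p = 0.383), and Mvd, the mevalonate diphosphate decarboxylase below the level filter, by 0.26, which did not pass when the filter was dropped. Ggps1, which makes geranylgeranyl diphosphate on the branch away from cholesterol, was the 1 enzyme with a negative difference, at -0.11 (limma adjusted p = 0.25).

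The 11 enzymes between squalene and cholesterol all had a positive late minus early difference, with a median of 0.41, and 4 of the 10 tested passed. Cyp51, the lanosterol demethylase, had 8.21, 8.44 and 8.43 in the late window, 7.82, 7.46 and 7.68 in the early window, and 8.15 and 7.81 on vehicle. The early arrays at 3 and 6 h lay below both vehicle arrays and the late arrays above both. The difference was 0.71 (SE 0.112, limma adjusted p = 0.0406), the 19th highest of 10916 genes.

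Sc5d, a sterol desaturase late in the pathway, had 10.17, 10.18 and 10.12 in the late window, 9.67, 9.38 and 9.49 in the early window, and 10.11 and 9.73 on vehicle. Every early array lay below both vehicle arrays and every late array above both. The difference was 0.64 (SE 0.0983, limma adjusted p = 0.0406), and 2 further probe sets of this gene above the filter gave 0.33 and 0.59. Sqle, squalene epoxidase, had 9.42, 9.55 and 9.46 in the late window, 9.0, 8.72 and 8.98 in the early window, and 9.24 and 8.90 on vehicle. Its late arrays were the 3 highest, and the difference was 0.58 (SE 0.098, limma adjusted p = 0.0407).

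Nsdhl, which helps to remove the methyl groups of lanosterol, had 10.28, 10.34 and 10.47 in the late window, 10, 9.87 and 9.97 in the early window, and 10.18 and 9.97 on vehicle. The difference was 0.41 (SE 0.0695, limma adjusted p = 0.0406), with the late arrays above all others. Dimmer probe sets of called genes gave smaller differences: the other Fdps probe set, below the level filter, gave 0.11, and 2 such probe sets of Cyp51 gave 0.08 and 0.38.

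Lss, which closes squalene epoxide to lanosterol, had 9.57, 9.55 and 9.51 in the late window, 9.25, 9.10 and 9.02 in the early window, and 9.48 and 9.16 on vehicle. The difference was 0.42 (SE 0.0855) and did not pass (limma adjusted p = 0.072). Fdft1, squalene synthase, had 9.64, 9.63 and 9.64 in the late window, 9.38, 9.40 and 9.18 in the early window, and 9.54 and 9.49 on vehicle. All its early arrays lay below both vehicle arrays and all its late arrays above both, and the difference of 0.32 (SE 0.0603) did not pass (limma adjusted p = 0.0608).

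Dhcr7, which makes the last reduction to cholesterol, had 8.70, 8.59 and 8.57 in the late window, 8.35, 8.47 and 8.16 in the early window, and 8.55 and 8.19 on vehicle. Hsd17b7, a ketone reductase of the same demethylation steps as Nsdhl, had 8.60, 8.68 and 8.66 in the late window, 8.50, 8.21 and 8.50 in the early window, and 8.58 and 8.35 on vehicle. In both genes the late arrays lay above all the other arrays, and the differences of 0.29 for Dhcr7 and 0.24 for Hsd17b7 did not pass (limma adjusted p = 0.184 and 0.2). Msmo1, the methylsterol oxidase, differed by 0.22 (limma adjusted p = 0.139) and Ebp, the sterol isomerase, by 0.05 (limma adjusted p = 0.588). Tm7sf2, a sterol reductase below the level filter, differed by 0.41, and it passed when the filter was dropped.

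**Figure D2:**
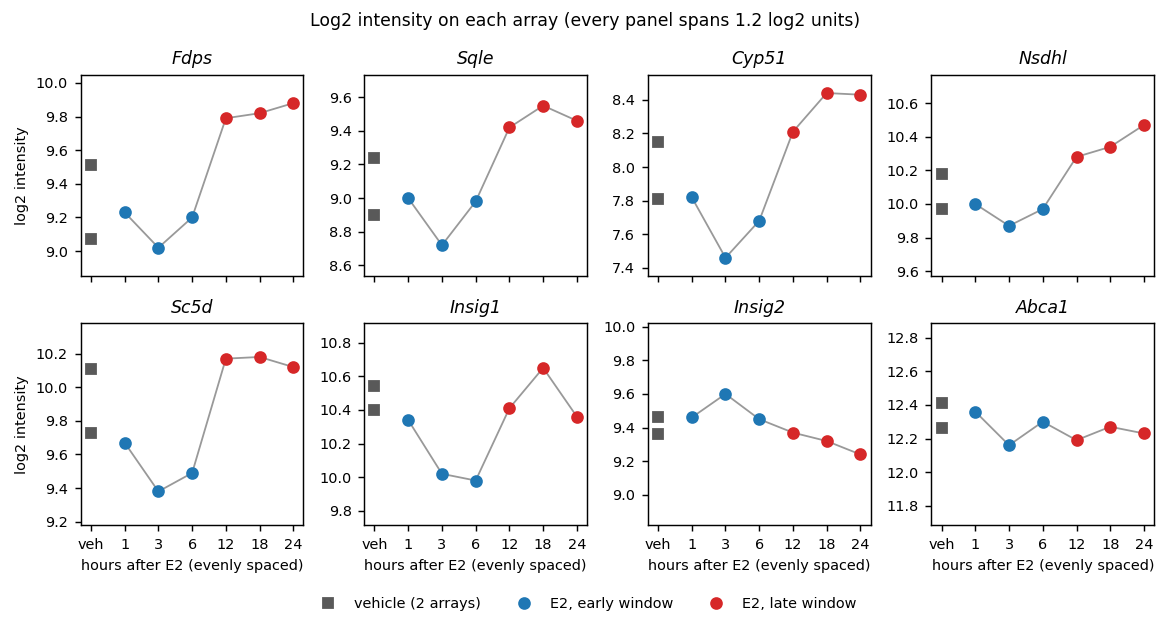
Log2 intensity (vertical, each panel spanning the same range) of 8 genes on vehicle (squares, 2 arrays) and at each hour after E2 (circles, 1 array each, hours evenly spaced). The 5 enzymes that passed have their lowest array at 3 h and their 3 highest arrays at 12, 18 and 24 h, and Insig2 and Abca1 have a narrower range.

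The anchors of SCAP had early minus vehicle differences of -0.36 for Insig1 and 0.09 for Insig2, and neither passed (limma adjusted p = 0.794 and 0.961). Insig1, an anchor of SCAP that is itself a target of SREBP2, had 10.41, 10.65 and 10.36 in the late window, 10.34, 10.02 and 9.98 in the early window, and 10.54 and 10.40 on vehicle. Every early array lay below both vehicle arrays, and the late arrays lay around them, with a late minus vehicle difference of 0.00. The late minus early difference of 0.36 (SE 0.105) did not pass (limma adjusted p = 0.145). Insig2, the related anchor, had 9.37, 9.32 and 9.24 in the late window, 9.46, 9.60 and 9.45 in the early window, and 9.36 and 9.46 on vehicle. Its late arrays lay below its early arrays, by -0.19 (SE 0.058, limma adjusted p = 0.149). The difference between the courses of Insig1 and Insig2 was not tested.

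Srebf2, which encodes SREBP2, had 10.59, 10.57 and 10.49 in the late window, 10.67, 10.50 and 10.59 in the early window, and 10.57 and 10.56 on vehicle. Scap had 9.80, 9.67 and 9.76 in the late window, 9.77, 9.78 and 9.72 in the early window, and 9.74 and 9.78 on vehicle. The windows overlapped in both genes, and the late minus early differences were -0.04 for Srebf2 and -0.02 for Scap (limma adjusted p = 0.711 and 0.864).

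Sterol transport showed small differences. Npc1, the lysosomal membrane protein that exports cholesterol, had 8.17, 8.25 and 8.30 in the late window, 8.39, 8.41 and 8.44 in the early window, and 8.40 and 8.33 on vehicle. The late arrays lay below all the others, and the difference of -0.17 did not pass (limma adjusted p = 0.148). Npc2, its soluble partner, had 13.31, 13.34 and 13.32 in the late window, 13.40, 13.31 and 13.38 in the early window, and 13.31 and 13.36 on vehicle, and these ranges overlapped. Stard4, a sterol carrier, had 8.92, 8.85 and 8.77 in the late window, 8.90, 8.96 and 8.96 in the early window, and 9.04 and 8.93 on vehicle. It differed by -0.09 between the windows (limma adjusted p = 0.362).

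The LXR and efflux genes had overlapping windows. Abca1, the exporter that loads cholesterol onto lipoprotein, had 12.19, 12.27 and 12.23 in the late window, 12.36, 12.16 and 12.30 in the early window, and 12.26 and 12.41 on vehicle. Abcg1, another exporter, had 10.85, 10.77 and 10.82 in the late window, 10.79, 10.85 and 10.81 in the early window, and 10.90 and 10.83 on vehicle. Their differences of -0.04 and 0.00 lay within the spread of the arrays (limma adjusted p = 0.74 and 0.973).

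Mylip, a ubiquitin ligase that removes lipoprotein receptors, had 11.56, 11.51 and 11.46 in the late window, 11.56, 11.48 and 11.63 in the early window, and 11.57 and 11.71 on vehicle. Nr1h3, which encodes an LXR, had 9.30, 9.09 and 9.05 in the late window, 9.03, 9.01 and 9.11 in the early window, and 9.01 and 9.13 on vehicle. Neither passed, with differences of -0.05 for Mylip and 0.09 for Nr1h3 (limma adjusted p = 0.663 and 0.476).

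**Figure D3:**
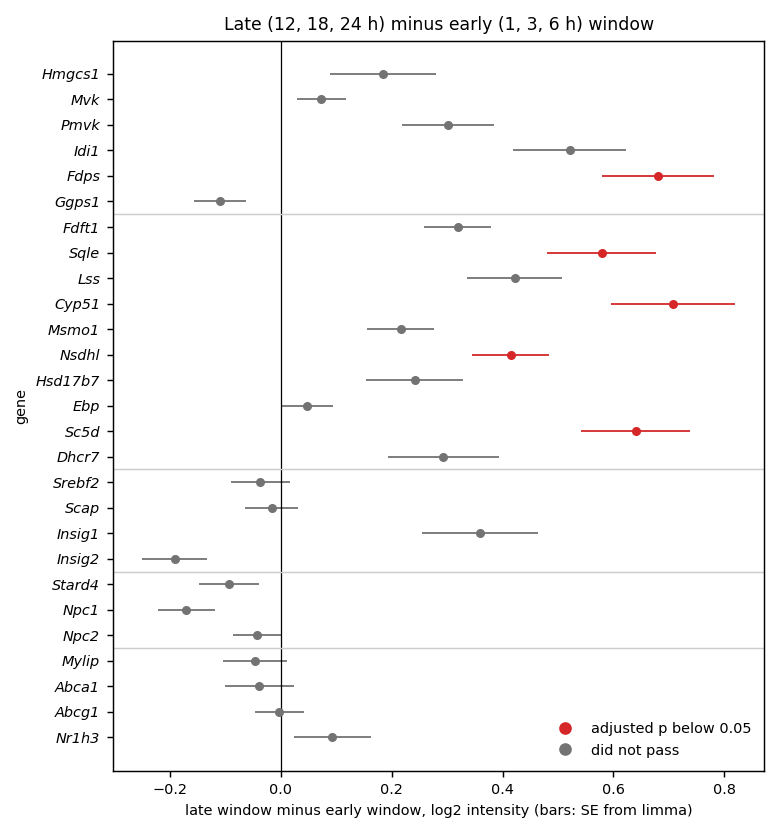
Late minus early difference in log2 intensity (horizontal) for the 27 tested genes (down the page by role), with bars for the SE from limma. Red points, for adjusted p below 0.05, are Fdps, Sqle, Cyp51, Nsdhl and Sc5d, and the regulators, transport and efflux genes other than Insig1 lie between -0.19 and 0.09.

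The order of the arrays was also read without a test. All late arrays lay above all early arrays in 14 of the 27 genes, 13 of them enzymes, against 8.96% of all genes tested. All late arrays lay below all early arrays in 3 of the 27 (Ggps1, Insig2 and Npc1), against 15% of all genes. All late arrays lay above both vehicle arrays in 12 of the 27, all of them enzymes, against 11.1%, and all early arrays lay below both vehicle arrays in 4 (Fdft1, Msmo1, Sc5d and Insig1), against 6.23%. Fdft1 and Sc5d did both, against 0.577% of all genes.

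The lowest of the 8 arrays was the one at 3 or 6 h in 16 of the 27 genes, against 22.6% of all genes. In 12 of these it was 3 h, and in Fdft1, Lss, Dhcr7 and Insig1 it was 6 h, against 11.5% and 11.1% of all genes. The highest array was at 12, 18 or 24 h in 18 of the 27, against 33.8%. It was at 12 h in 8 genes, at 18 h in 6 and at 24 h in 4, against 15.9%, 7.0% and 10.9% of all genes. The enzymes that peaked at 24 h were Mvk, Pmvk, Fdps and Nsdhl.

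At single times, a gene was counted when its log2 intensity differed by 0.32 or more, in the same direction, from each of the vehicle arrays, since each time has 1 array. A limma fit with a mean per time has 1 array in each E2 group and 1 residual degree of freedom, so no calls from it are given. The counts below describe single arrays and are not a test. At 1 h, 0 of 27 lay above and 0 below, against 0.733% and 0.128% of all genes. At 3 h, 0 lay above and 4 below (Idi1, Cyp51, Sc5d and Insig1), against 1.62% and 0.76%. Relative to the vehicle mean the 3 h array stood at 0.689-fold for Sc5d, 0.699-fold for Cyp51, 0.727-fold for Idi1 and 0.73-fold for Insig1. At 6 h, 0 lay above and 1 below (Insig1, at 0.712-fold), against 1.43% and 0.733%. At 12 h, 0 lay above and 0 below, against 0.44% and 0.559%, and at 18 h likewise, against 0.467% and 0.614%. At 24 h, 1 lay above (Fdps, at 1.5-fold) and 0 below, against 0.476% and 0.614%.

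Against vehicle, no gene of the group passed the test in either window. In the late window, 0 of 27 passed (limma), against 0% of all genes (unadjusted p below 0.05 in 306 higher and 524 lower). Of the 27, 6 had an unadjusted p below 0.05, all higher (Fdps, Sqle, Nsdhl, Cyp51, Pmvk and Lss). The largest late minus vehicle differences were 0.54 for Fdps (SE 0.113) and 0.41 for Sqle (SE 0.11), and the smallest adjusted p of the group was 0.634 (limma). In the early window, 0 of 27 passed (limma), against 0% of all genes (unadjusted p below 0.05 in 397 higher and 190 lower). Of the 27, 5 had an unadjusted p below 0.05, all lower (Sc5d, Insig1, Cyp51, Idi1 and Fdft1). The early minus vehicle difference was -0.40 for Sc5d (SE 0.11) and -0.36 for Insig1 (SE 0.117), with a smallest adjusted p of 0.574 (limma). The 3 comparisons share arrays.

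The median of the fatty acid synthesis genes, a list of 18, followed a course like that of the enzymes. Against the vehicle mean it was -0.28 and -0.18 on the arrays of 3 and 6 h, and 0.17, 0.25 and 0.28 in the late window in order of time. All late arrays lay above all early arrays in 13 of the 18, against 8.96% of all genes tested. Gpam (-0.15) and Elovl5 (-0.02) had negative late minus early differences. Of the 18, 3 passed in that comparison, all higher, against 0.247% of all genes. They were Acss2, which makes acetyl-CoA from acetate, by 0.74, Scd2, a fatty acid desaturase, by 0.71, and Agpat2, which acylates glycerolipid precursors, by 0.53 (limma adjusted p = 0.044, 0.0414 and 0.0406). Of 33 other listed genes of sterol handling, 25 were measured, 23 tested and 0 passed in either direction (limma), with a smallest adjusted p of 0.0892. Their median late minus early difference was -0.04.

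**Figure D4:**
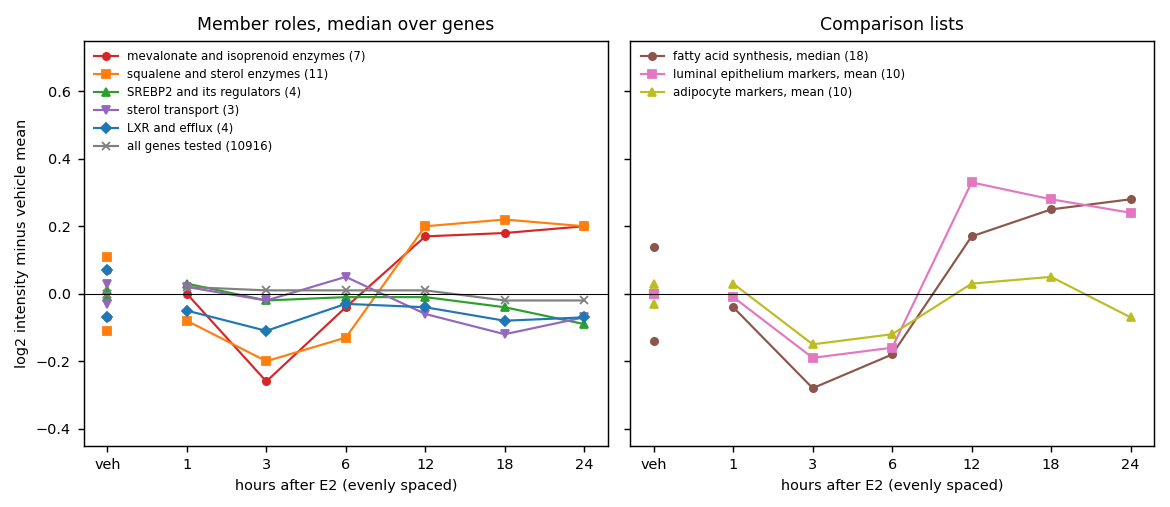
Median log2 intensity over the genes of each role, as the difference from the vehicle mean, on vehicle and at each hour after E2 (left), with the fatty acid synthesis median and the means of 10 luminal epithelial and 10 adipocyte markers (right). Both enzyme groups lie below vehicle at 3 h and above it from 12 to 24 h, as do the fatty acid synthesis median and the luminal marker mean.

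Luminal epithelial markers had the same order of windows as the enzymes, and the other marker lists did not separate in that order. The luminal list held Krt7, Krt8, Krt18, Krt19, Epcam, Cdh1, Cldn3, Cldn4, Elf3, Prlr, Areg and Ehf, of which 10 were measured. In its mean, more luminal cells and more RNA of these genes per cell cannot be told apart. The mean of the 10 measured luminal markers, all above the level filter, lay between 9.71 and 9.80 in the late window, between 9.28 and 9.45 in the early window, and between 9.46 and 9.47 on vehicle, and 3 of them passed as higher in the late window. The adipocyte marker mean, also over 10 genes above the filter, lay between 12.34 and 12.46 in the late window, 12.26 and 12.44 in the early window, and 12.38 and 12.44 on vehicle. Skeletal muscle markers, from tissue next to the gland, lay between 9.59 and 10.35 in the late window, 10.01 and 10.66 in the early window, and 9.21 and 9.58 on vehicle. The late minus early difference of the marker mean was 0.40 for the luminal list, 0.09 for adipocytes, -0.23 for skeletal muscle, -0.24 for B lymphocytes, -0.19 for T lymphocytes, -0.12 for macrophages and -0.05 for the myoepithelium. Among the 7 myoepithelial markers, Krt14, Krt17 and Trp63 lay below the level filter.

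With the luminal marker mean as a covariate, 0 of the 27 genes passed in the late minus early comparison. The differences of the 5 called enzymes lay between 0.11 (Sc5d) and 0.47 (Fdps), against 0.41 to 0.71 without it. Their SE rose to between 0.253 (Nsdhl) and 0.389 (Cyp51), against 0.0695 and 0.112 without it. The luminal mean itself separated the windows, so this fit cannot tell a luminal share from the window difference. With the adipocyte mean 0 passed as well, in a fit that called 0 of all genes higher. The differences of the 5 lay between 0.44 and 0.68. The median difference over the 27 genes was 0.083 in that fit, against 0.184 without a covariate. With the skeletal muscle mean 10 passed, all 5 among them, and also Insig2, whose difference was negative in the main fit. Without the 6 h array Fdps alone passed, and without the 1 h array 10 genes passed, all 5 among them.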

How the data were processed

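Total RNA was labelled with biotin and hybridised to 1-colour Affymetrix arrays, per the labels' protocols. GCOS 1.0 and RMA are named in the submitters' processing notes, which give neither of them a role. The deposited values are linear intensity values of 45101 probe sets. Array medians lay between 173.9 and 180.5, and no further normalization was applied. Depth is not defined for arrays, and their number limits the precision.

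Log2 of the deposited intensity was taken, 64 control probe sets were left out, and 34945 probe sets with 1 symbol (932 had several, 9160 none) gave 18193 genes, each by its brightest probe set. Of the Entrez identifiers, 34741 matched RefSeq GRCm38.p6. Genes at or above the 40th percentile of the mean (7.72) were tested.

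limma 3.58.1 in R 4.3.3 was fitted to the 3 windows over 8 arrays (5 residual degrees of freedom, mean-variance trend), with Benjamini-Hochberg adjustment. An alternative fit had a mean per time. The code was tested on simulated data. All 31 members are named, by a rule that gives values on every array for at most 12 non-overlapping members and for the regulators. The members, lists and windows were chosen with earlier results of these data known. No replicate numbers pair the groups.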

Additional observations from a re-analysis of the deposited data

Results flagged for a closer look

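The late and the early window differed in 5 genes by the limma test: 0.68 for Fdps, 0.58 for Sqle, 0.71 for Cyp51, 0.41 for Nsdhl and 0.64 for Sc5d. Vehicle cancels out of this difference, and none of the 5 passed against vehicle in either window. All 3 late arrays lay above all 3 early arrays in each of them. Tm7sf2, below the level filter, had every late array above and every early array below both vehicle arrays, with a late minus early difference of 0.41. This difference was not tested with the level filter, and it passed the limma test when the filter was dropped.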

How the results depend on the processing

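Between the late and the early window 5 members passed, all higher. The count became 1 when probe sets were averaged per gene (Tm7sf2, none of the 5, of which 3 were still above the filter). With array weights it became 15, among them Ggps1, Insig2 and Npc1, whose differences were negative in the main fit. With the skeletal muscle marker mean as a covariate it became 10, Insig2 among them, and with the adipocyte or the luminal epithelial one 0. The differences of the 5 lay between 0.44 and 0.68 with the adipocyte covariate and between 0.11 and 0.47 with the luminal one. With the luminal covariate their SE lay between 0.253 and 0.389, against 0.0695 to 0.112 in the main fit. Quantile normalization kept 3 of the 5 and lost Sqle and Nsdhl. Leaving out 1 array gave 0 to 10. The median late minus early difference over tested members, 0.184, became 0.083 with a filter at the 60th percentile, 0.124 with the mean of probe sets, 0.083 with the adipocyte covariate and -0.061 with the luminal covariate, and lay between 0.073 and 0.224 with 1 array left out. The luminal covariate also turned the late minus vehicle median (0.076) to -0.043, and the late minus early differences of Idi1 to -0.335 and of Insig1 to -0.334. The early minus vehicle median, -0.06, lay between -0.147 and -0.016 with 1 array left out. The cause of these changes was not tested.

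Over all genes, 27 were higher in the late window. This higher count became 13 with the mean of probe sets, 520 with array weights (1694 lower) and 202 with the muscle covariate (827 lower). It became 0 with the adipocyte or luminal covariate, and lay between 0 and 119 with 1 array left out. Quantile normalization gave 20 higher and 12 lower, where the deposited scale gave 27 and 33. Adjusted p over the alternatives ran between 0.00315 and 0.668 for Fdps, 0.00359 and 0.805 for Sqle, 0.00315 and 0.769 for Cyp51, 0.00465 and 0.61 for Nsdhl, and 0.00315 and 0.918 for Sc5d (limma). Against vehicle, 0 members passed in either window under the alternatives that kept both vehicle arrays, and few of all genes did. The largest all-gene count in the early window was 31 higher and 18 lower, without the 1 h array. In the late window it was 1 higher, with array weights, so a count of 0 says little about these members.

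At single times, the 4 members below both vehicle arrays at 1, 3 or 6 h became 0 at 1.5-fold, 7 at 1.1-fold, and 4 to 11 against 1 vehicle array. The 1 member above at 12, 18 or 24 h became 0 at 1.5-fold, 9 at 1.1-fold and 3 after quantile normalization. It became 0 with the mean of probe sets, and 1 to 10 against 1 vehicle array. The count of members with all late above all early arrays, 14, lay between 12 and 16. No paired analysis was possible because the groups compared share fewer than 2 replicate numbers. With 1 array per time and 2 vehicle arrays, small differences were not detectable.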
